A study of Homo sapiens with 30 samples.

Results

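KI-ARv-03 is a CDK9 inhibitor, and its effect on RNA was measured here after 2 h at 4 µM in the human prostate cancer line 22Rv1, which is castration-resistant. The comparison takes the 3 libraries titled for KI-ARv-03 at 2 h and the 3 titled for DMSO, the solvent control, at 2 h, which are 6 of the 30 libraries of the series. Both measures in the deposited table were used, the level of each transcript and its conversion level, with 1 transcript for each of 22389 genes. All cells had taken up 4-thiouridine (s4U) at 800 µM for 30 min, and the medium was then changed for medium that held 800 µM s4U together with DMSO or KI-ARv-03. The cells collected just before that change form the 0 h group of 3 libraries. A further group of 3 libraries received KB742, the other CDK9 inhibitor of the study, at 1.2 µM for 2 h. The labels do not say that the 3 libraries of a group came from separate cultures, so p-values measure the spread between libraries, which may be technical.

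CDK9 is the kinase subunit of the elongation factor P-TEFb. It lets RNA polymerase II leave its pause near a gene's start and elongate. RNAs with a short life need constant synthesis, so their levels are known to fall first when elongation stops, while the level of a stable RNA can stay high for hours. SLAM-seq separates new from old RNA: s4U enters new RNA, iodoacetamide alkylates it, and the reads then carry T-to-C conversions. A gene's conversion level is given here as a percentage, and its level in CPM, reads scaled to a common total and rescaled between libraries. CPM gives a gene's part of its library, so a change shared by all genes would not be seen in it, and the spike-in RNA that the labels mention was not used here.

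The 6 libraries held 4800187 to 8137468 reads, and 13093 to 14343 genes had a read. The 10 luminal and 22Rv1 identity markers all had reads, with a summed level of 1866 to 2030 CPM with DMSO and 2014 to 2076 CPM with KI-ARv-03. Of 19 markers of immune, stromal, basal and endothelial cells, 8 had a read, and their summed level was 26.0 to 45.2 CPM with DMSO and 17.7 to 29.8 CPM with KI-ARv-03. KRT5, KRT14, COL1A2, DCN, PECAM1, VWF, CDH5, CLDN5, PTPRC, CD3E and LYZ were at 0. Of 10 neuroendocrine markers 9 had a read, with 257.7 to 528 CPM with DMSO and 416 to 637 CPM with KI-ARv-03. The part of these markers in the results was not tested. The 6 libraries correlated with their own group at a mean r of 0.931 to 0.956 over genes. In other groups 0 h replicate 3 (0.878) and KB742 replicate 2 at 2 h (0.870) stood apart by this measure, and KI-ARv-03 replicate 1 at 4 h stood apart by a mean conversion of 1.18%, against 0.383% and 0.422% in its replicates.

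Conversion over all reads was lower with KI-ARv-03 in every library. The read-weighted mean conversion was 0.656%, 0.827% and 0.896% in the DMSO libraries, and 0.406%, 0.372% and 0.412% in those with KI-ARv-03. The groups did not overlap, and the 3 values with KI-ARv-03 lay closer together (0.396% ± 0.0218, SD, n = 3) than those with DMSO (0.793% ± 0.124). The difference was -0.397 percentage points, with p = 0.1 in the exact two-sided permutation test, the smallest p that 3 libraries against 3 allow. Before the change of medium the mean was 0.408%, 0.339% and 0.289%, so the mean had grown by 0.448 percentage points with DMSO and by 0.0510 with KI-ARv-03. Of the 3 KI-ARv-03 libraries, 2 lay inside the range of the 0 h libraries and 1 above it. By an unweighted mean over 7061 genes, conversion had grown by 0.782 percentage points with DMSO and by 0.219 with KI-ARv-03. By that mean all 3 KI-ARv-03 libraries (0.607%, 0.608% and 0.675%) lay above all 3 of 0 h (0.468%, 0.394% and 0.370%). The median over these genes had grown by 0.293 with DMSO and by 0.0793 with KI-ARv-03. With KB742 the read-weighted mean was 0.509%, 0.356% and 0.428%, a range that holds all 3 values of KI-ARv-03 (difference -0.0343 percentage points, exact permutation p = 0.6).

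**Figure D1:**
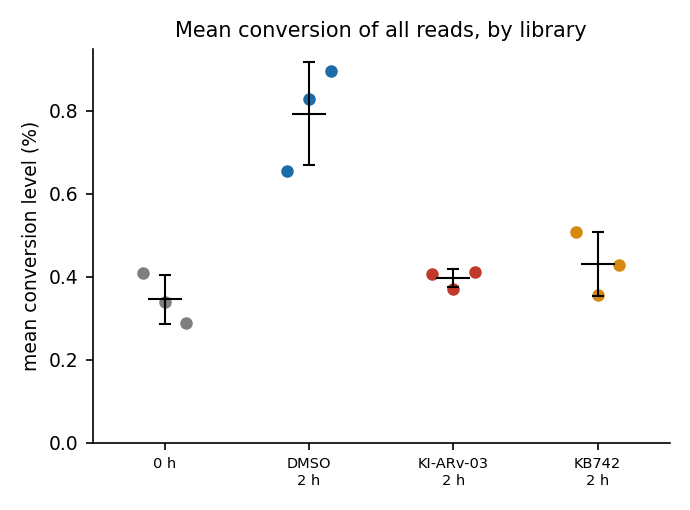
Read-weighted mean conversion level (%) of each library at 0 h and after 2 h with DMSO, KI-ARv-03 or KB742. Points are libraries, horizontal marks the mean of 3 and bars the SD. The 3 DMSO libraries, at 0.656% to 0.896%, lie above all 3 with KI-ARv-03, at 0.372% to 0.412%.

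Of 11417 genes tested in level, KLF6, METTL18 and FGF18 were lower with KI-ARv-03 than with DMSO at 2 h (0.0263% of genes, limma, Benjamini-Hochberg adjusted p under 0.05) and none was higher (0%), while 345 had an unadjusted p under 0.05, 173 of them lower and 172 higher. edgeR also called 3 genes lower and 0 higher (320 at an unadjusted p under 0.05), and DESeq2 7 lower and 0 higher (394). The promoters of these 3 genes are shown because CDK9 acts on polymerase paused near a gene's start. They run from 250 bases before to 50 after a start in RefSeq, on the GRCh38.p14 build and the gene's strand, at chr10:3785160-3785459 (minus strand) for KLF6, chr1:169794858-169795157 (minus strand) for METTL18 and chr5:171419397-171419696 (plus strand) for FGF18. For METTL18 the table lists a further start, and the upstream one is shown. Capitals mark CCAAT or GGGCGG on either strand.
KLF6: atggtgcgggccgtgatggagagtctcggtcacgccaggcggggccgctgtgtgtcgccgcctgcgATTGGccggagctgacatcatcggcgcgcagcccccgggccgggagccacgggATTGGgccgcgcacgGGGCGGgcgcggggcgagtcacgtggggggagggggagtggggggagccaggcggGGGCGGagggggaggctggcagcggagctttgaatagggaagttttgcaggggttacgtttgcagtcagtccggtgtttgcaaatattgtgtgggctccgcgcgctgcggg
METTL18: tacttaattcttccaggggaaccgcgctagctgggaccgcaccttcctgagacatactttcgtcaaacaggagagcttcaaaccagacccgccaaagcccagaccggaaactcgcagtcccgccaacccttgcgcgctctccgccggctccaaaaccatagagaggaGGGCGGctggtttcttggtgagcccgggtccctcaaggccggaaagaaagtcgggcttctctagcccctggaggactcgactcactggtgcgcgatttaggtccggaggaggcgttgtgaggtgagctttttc
FGF18: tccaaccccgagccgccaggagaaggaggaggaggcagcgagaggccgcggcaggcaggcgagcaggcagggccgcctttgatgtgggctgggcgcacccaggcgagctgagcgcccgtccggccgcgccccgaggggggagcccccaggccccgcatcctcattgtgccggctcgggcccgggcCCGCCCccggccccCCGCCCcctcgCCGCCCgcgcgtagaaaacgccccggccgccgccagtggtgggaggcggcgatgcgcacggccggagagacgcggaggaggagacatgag
The KLF6 promoter holds CCAAT 2 times and GGGCGG 2 times, that of METTL18 holds GGGCGG 1 time, and that of FGF18 holds GGGCGG 3 times. CCAAT is in 34.6% and GGGCGG in 45.0% of the 35116 promoters of the table, and in 35.4% and 67.0% of the 13625 promoters of genes tested here. TATAAA, in 11.5% of all promoters and 5.91% of those of genes tested, is in none of the 3 windows. Nor are TGACGTCA (1.85% and 2.83%) and TGANTCA (7.71% and 4.73%), all sought on both strands. The GC content is 70.7% for KLF6, 59.0% for METTL18 and 77.7% for FGF18, against a median of 65.0% for genes tested. A match or its absence describes these letters only.

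KLF6 (NM_001160124) encodes a zinc finger transcription factor of the Krüppel-like family and is induced early by growth signals. Its level was 59.2, 74.5 and 100.7 CPM with DMSO and 12.4, 23.0 and 17.1 CPM with KI-ARv-03. The groups were far apart, and the 0 h libraries, at 80.8, 63.2 and 54.4 CPM, sided with DMSO. The log2 difference was -2.10 ± 0.35 (SE) on the log2(CPM + 1) scale (adjusted p = 0.00957). There were 543 reads in the 3 DMSO libraries and 161 in those with KI-ARv-03. After scaling for depth and rescaling between libraries, the ratio was 0.220 (95% interval 0.183 to 0.263, counting error only). KLF6 was also the only gene called both for its level and for its conversion. The conversion of its RNA was 32.7%, 35.9% and 34.9% with DMSO and 24.4%, 18.4% and 24.7% with KI-ARv-03 (adjusted p = 0.0384), still above the 10.2%, 8.11% and 7.86% of 0 h. That call was lost without any 1 of the 6 libraries (adjusted p up to 0.238).

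METTL18 (NM_001320199) encodes a histidine methyltransferase of the ribosomal protein RPL3. Its level was 13.5, 22.1 and 19.2 CPM with DMSO and 3.21, 2.59 and 1.90 CPM with KI-ARv-03. All KI-ARv-03 libraries were also below the 0 h libraries, which had 8.84, 10.4 and 5.21 CPM. The log2 difference from DMSO was -2.42 ± 0.39 (adjusted p = 0.00957), with 130 reads against 26. In other libraries of the study the gap was as wide, with 23.5 ± 1.76 CPM (n = 3) with DMSO and 2.46, 3.04 and 2.51 CPM with KI-ARv-03 at 4 h, and 36.1 ± 14.0 and 2.39 ± 1.52 at 8 h.

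FGF18 (NM_003862) encodes a secreted fibroblast growth factor. It was nearly undetected at 0 h (0, 0.204 and 0 CPM) and present after 2 h with DMSO (6.21, 11.3 and 6.39 CPM). With KI-ARv-03 it was as low as at 0 h, with 0.229, 0.370 and 0 CPM. These are 2 reads against 58. After scaling for depth and rescaling between libraries, the ratio was 0.0256 (95% interval 0.00303 to 0.0966, counting error only). The log2 difference was -2.87 ± 0.47 (adjusted p = 0.00957), and it depends on the pseudocount, since it was -4.23 with 0.25 in place of 1. It was -2.06 with the CPM as deposited and -3.03 with scaling by library size. At 4 h FGF18 stood at 21.6 ± 10.9 CPM with DMSO and at 0, 0.869 and 0.358 CPM with KI-ARv-03.

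The calls of these 3 genes depended on single libraries and on fitting all 10 groups together. None was called when the 2 groups were fitted alone (adjusted p = 0.0812 for KLF6 and METTL18 and 0.0860 for FGF18), or without DMSO replicate 2 (0.141 for each), DMSO replicate 3 (0.0850 to 0.204), KI-ARv-03 replicate 1 (0.0543 to 0.112) or KI-ARv-03 replicate 3 (0.0954 for each). All 3 kept their direction in those fits, and all 3 were called without DMSO replicate 1 or KI-ARv-03 replicate 2.

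**Figure D2:**
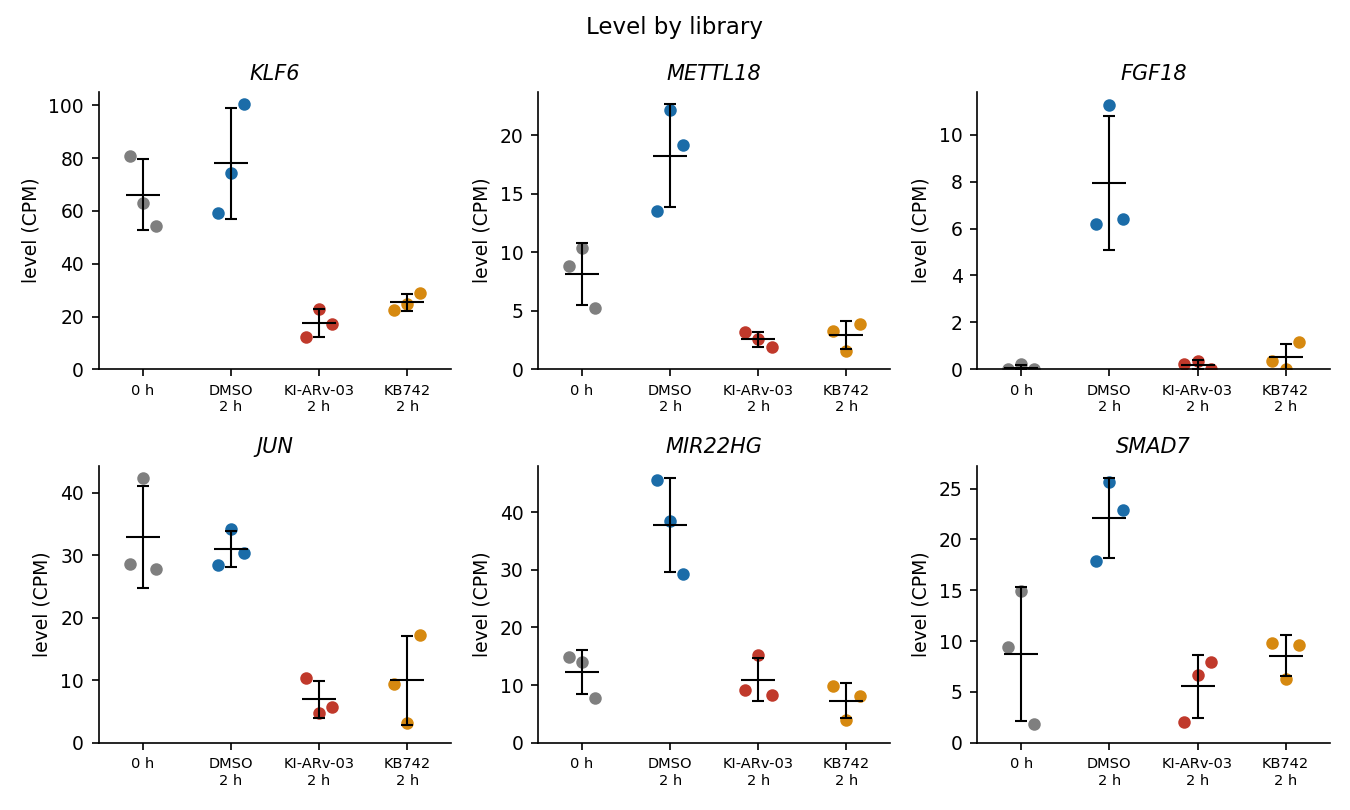
Level (CPM, rescaled) of KLF6, METTL18, FGF18, JUN, MIR22HG and SMAD7 in each library at 0 h and after 2 h with DMSO, KI-ARv-03 or KB742. Points are libraries, horizontal marks the mean of 3 and bars the SD. For each of the 6 genes, all 3 KI-ARv-03 libraries lie below all 3 DMSO libraries, and KLF6, METTL18 and FGF18 passed the adjusted test.

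Other genes had differences of this size that did not pass the adjusted test. JUN, a subunit of the AP-1 transcription factor, was at 28.5, 34.2 and 30.4 CPM with DMSO and 10.3, 4.81 and 5.70 CPM with KI-ARv-03 (log2 difference -2.07 ± 0.45, adjusted p = 0.138). Its DMSO libraries lay in the range of 0 h (28.7, 42.4 and 27.9 CPM). At 4 h JUN had 43.2, 50.2 and 25.1 CPM with DMSO and 45.0, 37.8 and 31.9 with KI-ARv-03, which overlapped. MIR22HG, the host transcript of miR-22, was at 45.6, 38.4 and 29.3 CPM with DMSO against 9.17, 15.2 and 8.37 (-1.73 ± 0.36, adjusted p = 0.129). Here the KI-ARv-03 libraries lay near 0 h (14.9, 14.1 and 7.81 CPM), and at 4 h MIR22HG was at 8.78, 5.65 and 8.95 CPM with KI-ARv-03 and 42.2, 51.0 and 53.5 with DMSO. SMAD7, an inhibitor of TGF-β signalling, was at 17.9, 25.6 and 22.9 CPM against 2.06, 6.66 and 7.98 (-1.94 ± 0.50, adjusted p = 0.692). C1orf35 was at 264, 227 and 232 CPM against 57.3, 74.8 and 98.5 (-1.67 ± 0.35, adjusted p = 0.129). DESeq2 called JUN, MIR22HG, C1orf35 and the zinc finger gene ZNF791 lower beside the 3 genes above, and JUN, MIR22HG and ZNF791 were called without 3 libraries of other groups that stood apart from their replicates.

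The remaining genes with the most negative log2 differences at an unadjusted p under 0.01 and without overlap were ZNF791 (-2.25), the imprinted makorin gene MKRN3 (-2.23), the multi-copy non-coding RNA SNAR-E (-2.07), ZSWIM9 (-1.92), the pseudogene TOB2P1 (-1.89) and C19orf25 (-1.73). The level of SNAR-E is uncertain, since reads of its near-identical copies could be split in counting. The most positive differences were those of TPTE (2.40), the ribosome-associated GTPase GTPBP2 (2.08), MPV17L (2.02), SOS2 (1.78), an exchange factor for RAS, the RNA-binding protein RBM23 (1.78), the endocytic protein FCHO2 (1.73), IRF9 (1.73), a subunit of the interferon response factor ISGF3, and EBLN2 (1.70). TPTE was at 0.730, 3.10 and 1.07 CPM with DMSO and at 7.56, 10.4 and 21.3 with KI-ARv-03. RBM23 was at 17.9, 23.7 and 7.99 CPM against 34.8, 75.9 and 60.5. None of these 8 passed the adjusted test (adjusted p from 0.606 to 0.998). Over all genes tested, the KI-ARv-03 libraries lay wholly below the DMSO libraries for 691 genes (6.05%) and wholly above for 673 (5.89%).

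Genes with the highest conversion at 4 h mostly had lower levels with KI-ARv-03 at 2 h. Genes were grouped by their conversion with DMSO at 4 h. Those libraries are not among the 6 compared, though they add to the spread taken from all 10 groups. A gene needed at least 20 reads in at least 2 DMSO libraries at 4 h, and no such minimum was set for KI-ARv-03. Genes high with DMSO and nearly absent with KI-ARv-03, such as FGF18, could enter this way, which favours negative differences. This grouping was chosen after the data were seen, so no test was made. No 0 h background was taken off, and the 90 genes of the top group that were tested in conversion had a median of 1.92% at 0 h. The 129 genes at 20% or more had a median log2 difference of -0.64, with a negative sign in 113 and a positive one in 16. In 58 of them (45.0%) the groups did not overlap and KI-ARv-03 was lower, and in 0 was it higher. The median was -0.12 for the 266 genes at 10 to 20%, -0.03 for the 493 at 5 to 10% and 0.07 for the 2765 below 0.5%, against 0.04 for all genes. By library, the median of the 129 genes relative to the DMSO mean was -0.60, -0.65 and -0.64 with KI-ARv-03, and -0.10, -0.03 and 0.11 in the DMSO libraries themselves. At 0 h it was 0.47, 0.36 and 0.51, so the median of these genes stood higher before the medium was changed than after 2 h. Single genes went the other way: FGF18, METTL18 and MIR22HG were lower at 0 h than with DMSO. With KB742, which shares the DMSO libraries, the median was -0.55, -0.54 and -0.64, which overlapped KI-ARv-03. Leaving out any 1 of the 6 libraries gave a median of the difference between -0.68 and -0.55.

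KLF6, METTL18, FGF18, JUN, SMAD7, MIR22HG and C1orf35 belong to these 129 genes, as do genes of other roles whose groups did not overlap without passing the test. TXNIP, which binds and inhibits thioredoxin, was at 180, 238 and 226 CPM with DMSO and 116, 57.4 and 113 with KI-ARv-03 (-1.22 ± 0.36, adjusted p = 0.959). Its conversion hardly differed, at 23.6%, 24.7% and 24.2% against 22.8%, 23.3% and 23.9%. DNAJB1, a cochaperone of HSP70, was at 48.2, 46.6 and 52.2 CPM against 26.4, 14.1 and 17.5 (-1.34). RBM39, a splicing factor, was at 190, 220 and 195 CPM against 101, 73.7 and 77.6 (-1.26). GADD45A, a growth arrest and DNA damage gene, was at 16.1, 23.3 and 20.8 CPM against 9.62, 6.66 and 6.08 (-1.32). ZBTB16, a transcriptional repressor, was at 60.6, 43.9 and 59.7 CPM against 9.17, 18.1 and 24.3 (-1.70).

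**Figure D3:**
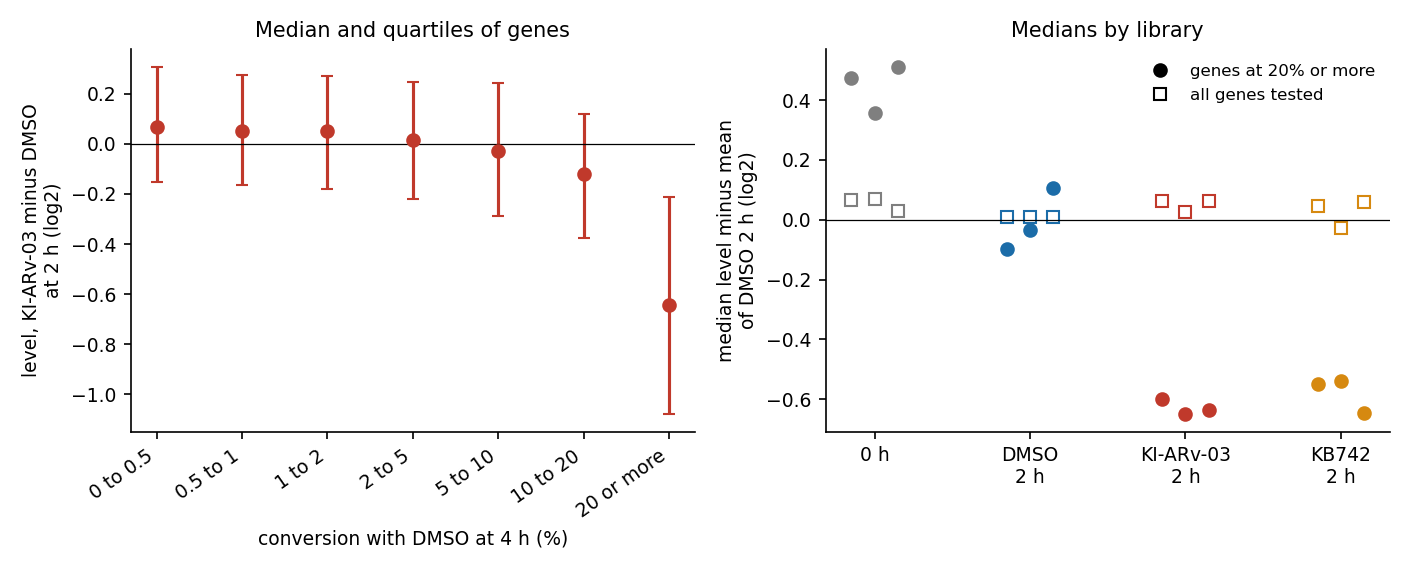
Left, difference in level between KI-ARv-03 and DMSO at 2 h (log2) of genes grouped by their conversion with DMSO at 4 h (%). Points are medians over genes and bars run between the quartiles. Right, median level relative to the DMSO mean (log2) of the 129 genes at 20% or more (circles) and of all genes tested (squares) in each library. The left medians go from 0.07 to -0.64, and the 3 KI-ARv-03 circles lie between -0.65 and -0.60.

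More genes were called in conversion than in level. Of 8164 genes with enough reads, 67 had lower conversion with KI-ARv-03 (0.821%, limma on the arcsine scale, adjusted p under 0.05) and 0 had higher (0%). At an unadjusted p under 0.05 there were 1068 lower and 33 higher, and the groups did not overlap for 1775 genes lower (21.7%) and 168 higher (2.06%). Among the 67 genes, mean conversion with DMSO ran from 1.18% to 34.5% (median 6.54%), and with KI-ARv-03 from 0.120% to 22.5% (median 1.39%). The ratio of the KI-ARv-03 mean to the DMSO mean ran from 0.0317 to 0.652, with a median of 0.217. All 67 had a higher mean with DMSO than at 0 h, but the call itself favours genes with a high DMSO mean. With KI-ARv-03 the mean was below that of 0 h in 22 of the 67 (23 without 0 h replicate 3). Over all genes with a 0 h value it was below in 2783 of 8156. The level of the 67 was lower in 51 and higher in 16, with a median log2 difference of -0.26, and KLF6 alone was also called in level. Over all genes tested in level, 5237 were lower and 6180 higher. Of the 8164 genes tested in conversion, 120 had a mean conversion over 10% with DMSO and 28 with KI-ARv-03.

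**Figure D4:**
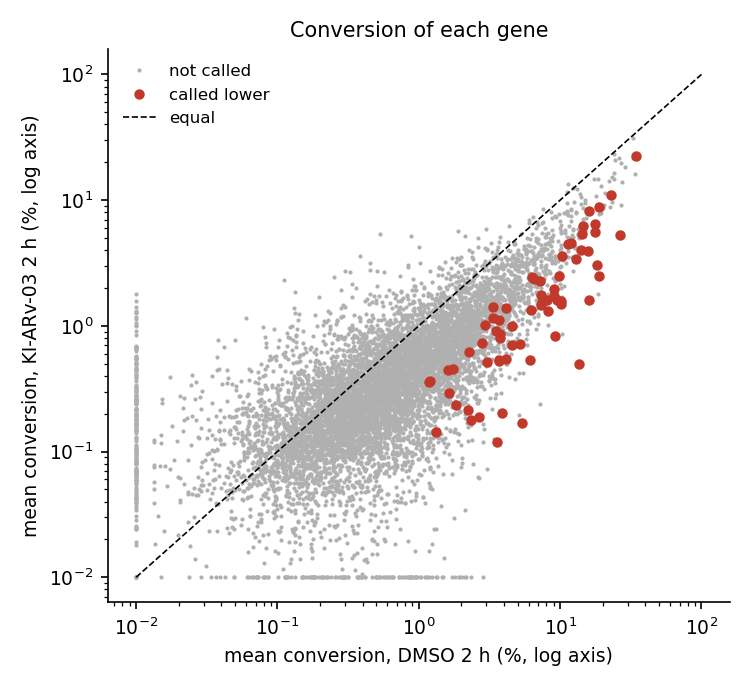
Mean conversion level of each gene with DMSO (horizontal) and with KI-ARv-03 (vertical) at 2 h, in percent on log axes, with values under 0.01% drawn at 0.01%. Each dot is 1 gene, the 67 genes called lower are red, and the dashed line marks equal values. All red dots lie under the line, and no gene was called above it.

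The set of called genes depended on single libraries. The count of 67 became 34 without DMSO replicate 2, 18 without DMSO replicate 3 and 77 without DMSO replicate 1. It was 29 when KI-ARv-03 replicate 1 was left out, 23 for replicate 2 and 33 for replicate 3. In 11 genes the call held in all 6 of these fits: ZBTB7A, ONECUT2, SOX4, NXPH4, RSRP1, POLE3, MAP2K7, TOMM40, ATN1, OTUD6B-AS1 and WAC-AS1. In 10 genes, KLF6, MNT and GATA2 among them, it held in 0 of the 6. Fitting the 2 groups alone gave 32 genes, of which 18 were among the 67, and a log2 scale in place of the arcsine gave 0 (988 at an unadjusted p under 0.05).

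Among these 11 genes are the transcription factors ZBTB7A, ONECUT2 and SOX4. ZBTB7A, a zinc finger repressor, had a conversion of 7.87%, 11.3% and 11.8% with DMSO and 3.12%, 3.26% and 4.36% with KI-ARv-03. The highest KI-ARv-03 library was well under the lowest DMSO library, and the 0 h libraries had 2.08%, 1.67% and 2.23%. The adjusted p was 0.000568, over 3593 reads with DMSO and 3499 with KI-ARv-03, the lowest of all genes. ONECUT2, a homeobox factor of the luminal list, had 5.55%, 5.54% and 7.92% against 2.17%, 2.57% and 2.65% (adjusted p = 0.00160). Its level was nearly the same, at 174, 257 and 276 CPM against 266, 243 and 255 (log2 difference 0.14 ± 0.30). SOX4, an HMG-box factor, had 11.5%, 16.7% and 15.7% against 5.99%, 5.02% and 7.64% (adjusted p = 0.00251), with levels of 215, 201 and 213 CPM against 102, 134 and 150 (-0.72 ± 0.43, not called). The ratios of the KI-ARv-03 mean to the DMSO mean were 0.347, 0.389 and 0.425 for these 3 RNAs. No 0 h background was taken off (means of 1.99%, 1.46% and 1.74%), so these ratios do not compare new RNA alone.

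RSRP1 encodes a protein rich in arginine and serine and had the widest gap of the 67 in percentage points. Its conversion was 22.4%, 20.9% and 36.1% with DMSO and 4.51%, 3.51% and 7.81% with KI-ARv-03 (adjusted p = 0.00203), above the 2.861%, 2.999% and 0.508% of 0 h. POLE3, a histone-fold subunit of DNA polymerase epsilon, showed little spread, at 3.20%, 3.61% and 3.29% against 1.08%, 1.13% and 1.23% (adjusted p = 0.00239). POLE3 kept its call with the 2 groups fitted alone (adjusted p = 0.0185), as did ZBTB7A, MAP2K7, TOMM40, OTUD6B-AS1 and WAC-AS1 (0.0476 to 0.0480), while ONECUT2, NXPH4, RSRP1, SOX4 and ATN1 did not (0.0563 to 0.0724). MAP2K7, the kinase that activates JNK, had 5.67%, 8.11% and 10.7% against 1.40%, 1.43% and 1.11% (adjusted p = 0.00250). TOMM40, the pore of the mitochondrial outer membrane translocase, had 2.95%, 3.87% and 2.24% against 0.427%, 0.431% and 0.677% (adjusted p = 0.00432). NXPH4, a secreted neurexophilin, had 4.84%, 7.80% and 3.03% against 0.750%, 1.01% and 0.404% (adjusted p = 0.00160), and ATN1, a nuclear corepressor, 12.1%, 8.90% and 5.96% against 2.36%, 1.52% and 2.05% (adjusted p = 0.00743). In each of these genes all 3 DMSO libraries were above all 3 with KI-ARv-03. For the antisense transcripts OTUD6B-AS1 (8.10% ± 1.87 against 1.60% ± 0.445) and WAC-AS1 (4.55% ± 0.798 against 0.989% ± 0.431), reads of the opposite gene may be included, since the sources used here do not say whether counting used the strand.

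**Figure D5:**
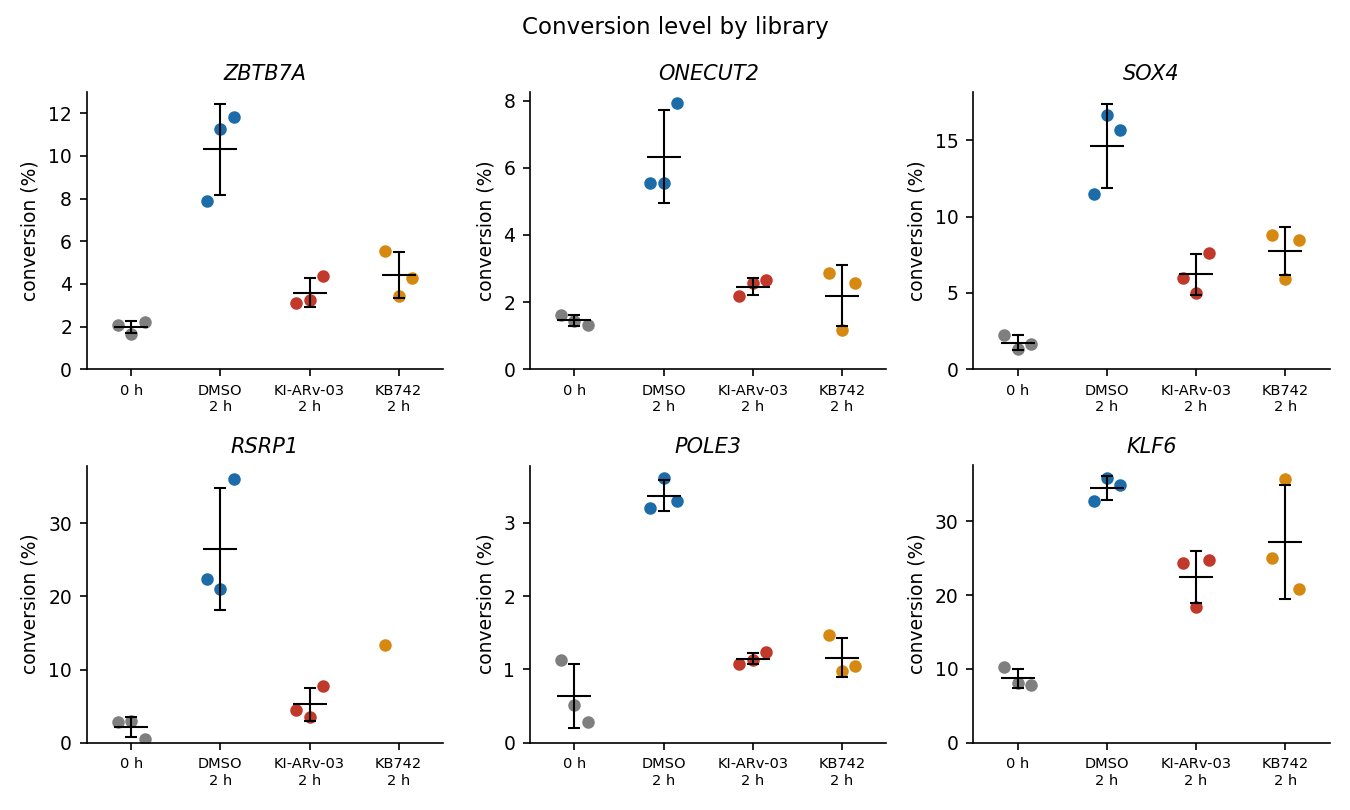
Conversion level (%) of ZBTB7A, ONECUT2, SOX4, RSRP1, POLE3 and KLF6 in each library at 0 h and after 2 h with DMSO, KI-ARv-03 or KB742. Points are libraries with at least 20 reads of the gene, horizontal marks the mean and bars the SD. In all 6 genes each KI-ARv-03 library lies below each DMSO library. For RSRP1, 1 KB742 library had enough reads.

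Other called genes came from many pathways. The chromatin remodeller gene INO80 had a mean conversion of 7.49% ± 2.13 with DMSO and 1.55% ± 0.794 with KI-ARv-03. RDH11, a retinol dehydrogenase of prostate epithelium, went from 3.70% ± 0.848 to 1.11% ± 0.0201. SRP19 of the signal recognition particle had 9.78% ± 3.78 against 2.49% ± 1.79, and the complexin gene CPLX2 2.65% ± 0.588 against 0.189% ± 0.262. The calls of INO80, RDH11 and SRP19 were lost without DMSO replicate 3 (adjusted p = 0.0538, 0.0523 and 0.0651) and that of CPLX2 without KI-ARv-03 replicate 1 (0.0518). Large differences on fewer reads were seen for HAPSTR1, a stress response gene, at 15.9% and 21.8% with DMSO against 3.73% and 1.25%, with 2 libraries of each group above the read minimum. ZNF746 had 15.1%, 16.3% and 23.6% against 2.68% and 3.47%, and MPHOSPH9 had 16.1% and 15.9% against 2.75% and 0.442%, a call that was lost with at least 10 reads per value (adjusted p = 0.432). The CUL3 adaptor gene KBTBD7 had 15.8% ± 2.91 against 3.92% ± 1.81, TMEM177 17.7% ± 4.36 against 5.55% ± 2.66, and the poly(A) polymerase gene TENT5A 17.7% ± 4.66 against 6.47% ± 2.98. The call of KBTBD7 was lost without KI-ARv-03 replicate 2 (adjusted p = 0.108) and that of ZNF746 without DMSO replicate 3 (0.0995). The calls of TMEM177 and TENT5A held without DMSO replicate 1 and in 1 further fit with a library left out. With at least 10 reads per value, HAPSTR1 (adjusted p = 0.0744), KBTBD7 (0.06965), TMEM177 (0.138) and TENT5A (0.107) lost their calls too. In 4 of the 6 fits with 1 library left out, HAPSTR1 and MPHOSPH9 could not be tested.

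Lists of genes with a common role were set beside all genes. The lists were chosen with results of these data known, so their counts describe and do not test. The share of genes called lower in conversion rose with their conversion with DMSO at 4 h. It was 0% of genes below 0.5%, 6.48% at 10 to 20% and 18.9% at 20% or more. So the 0.821% of all genes, given below, is a low mark for lists of high conversion. Of the 39 immediate early and short-lived regulators, 31 were tested in level, and KLF6 alone was called lower. The median log2 difference was -0.41, against 0.04 for all genes, with 7 of 31 (22.6%) wholly lower and 0 wholly higher. Over all genes these shares were 6.05% and 5.89%. FOS, the partner of JUN in AP-1, was at 1.83, 3.49 and 5.86 CPM against 1.60, 0 and 0.380, and EGR1, a zinc finger factor, at 18.6, 20.2 and 24.0 against 11.5, 13.7 and 16.4. Neither was called, and MYC, at 1.83, 10.1 and 7.46 CPM against 2.29, 1.11 and 2.66, overlapped between the groups. In conversion 14 of the list were tested and 2 were lower (0.821% of all genes), KLF6 and ZFP36L2, which binds AU-rich elements and speeds RNA decay (22.9% ± 5.21 against 10.98% ± 4.25, adjusted p = 0.0347). The call of ZFP36L2 was lost without DMSO replicates 2 or 3 or KI-ARv-03 replicates 1 or 2 (adjusted p up to 0.164). The list median of conversion was 9.43% with DMSO and 5.47% with KI-ARv-03. ID1, a short-lived inhibitor of helix-loop-helix factors, went against this, at 7.91%, 13.6% and 12.04% with DMSO and 9.19%, 11.9% and 13.4% with KI-ARv-03. Of 22 signalling brakes, 14 were tested in level and 0 called, with a median of -0.43 and 3 of 14 (21.4%) wholly lower and 1 (7.14%) wholly higher, beside the same 6.05% and 5.89%.

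Androgen-responsive genes gave no call at 2 h. Of 22 genes in their list, 19 were tested in level and 16 in conversion, and 0 were called in either. Over all genes 0.0263% and 0.821% were called lower, so a list of this size would hold few calls. In conversion 5 of 16 (31.25%) were wholly lower and 0 wholly higher, beside 21.7% and 2.06% of all genes. Among the 5, ZBTB10 had 3.18% ± 0.819 against 1.75% ± 0.377 (adjusted p = 0.0758) and PMEPA1 3.76% ± 0.446 against 2.08% ± 0.476 (0.112). FKBP5, a cochaperone induced by androgens, was at 200.1, 263 and 196 CPM against 268, 258 and 265, and KLK3, which encodes PSA, at 17.5, 11.3 and 12.3 against 13.1, 10.4 and 9.51. In the list of 18 luminal transcription factors, 16 were tested in level with 0 called (median 0.11). In conversion 3 of 12 were lower, against 0.821% of all genes: ONECUT2, SOX4 and GATA2, a zinc finger factor (12.1%, 12.3% and 11.2% against 3.85%, 5.15% and 4.79%, adjusted p = 0.0483). The call of GATA2 was lost without any 1 library (up to 0.161). FOXA1, a pioneer factor, had 12.6%, 18.1% and 14.1% against 7.90%, 9.32% and 11.5% and was not called (adjusted p = 0.109).

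The drug's target and its partners were also measured. Of 35 genes of P-TEFb, its 7SK regulators and elongation factors, 34 were tested in level and 0 called, with a median log2 difference of 0.00 and 2 wholly lower and 2 wholly higher (5.88% each, near the 6.05% and 5.89% of all genes). CDK9 itself was low, at 4.75, 3.49 and 9.59 CPM with DMSO and 2.75, 0.740 and 2.28 with KI-ARv-03 (-1.22 ± 0.40, adjusted p = 0.998). HEXIM1, the P-TEFb inhibitor of the 7SK complex, was at 22.3, 24.8 and 21.8 CPM against 26.8, 17.8 and 21.7. In conversion 1 of 30 was lower (0.821% of all genes), MLLT1, a chromatin reader of the super elongation complex (2.52%, 1.23% and 3.23% against 0.317%, 0.0690% and 0.150%, adjusted p = 0.0384). Its level hardly differed (log2 difference -0.05 ± 0.31), and of the 6 fits with 1 library left out, its call held without DMSO replicate 2 alone (adjusted p up to 0.203 in the others).

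Splicing regulators gave no call in level. CCNL1, an L-type cyclin, was at 2.92, 6.60 and 10.1 CPM with DMSO and 16.3, 13.0 and 22.4 with KI-ARv-03 (1.36 ± 0.37, adjusted p = 0.748). CCNL2 was at 37.2, 27.9 and 28.2 CPM against 71.3, 98.1 and 84.4 (1.41 ± 0.38, adjusted p = 0.707), and the SR protein kinase CLK2 at 7.30, 5.82 and 11.7 against 29.1, 25.9 and 23.2 (1.59 ± 0.51, adjusted p = 0.998). These 3 were wholly higher with KI-ARv-03, and at 0 h their levels had been above those with DMSO too (CCNL1 at 28.1, 34.9 and 27.6 CPM). PNISR, a serine- and arginine-rich protein, was wholly lower, at 516, 599 and 473 CPM against 299, 212 and 224 (-1.12 ± 0.29, adjusted p = 0.692). Of the 26 genes of this list, 4 were wholly lower and 4 wholly higher (15.4% each, against 6.05% and 5.89% of all genes), and RSRP1 was the only one of 21 called in conversion (0.821% of all genes).

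Other lists held few calls, and each single call in a list of 6 to 22 genes stands beside the 0.821% of all genes called lower in conversion. Of 73 ribosomal protein genes tested in level and 66 in conversion, 0 were called, and their median conversion was 0.171% with DMSO and 0.138% with KI-ARv-03. Of 52 nuclear-encoded respiratory chain genes, 2 were lower in conversion: NDUFB9 of complex I (0.601%, 1.64% and 1.74% against 0.184%, 0.0330% and 0.211%) and CYCS, cytochrome c (1.07%, 0.927% and 1.53% against 0.382%, 0.377% and 0.319%). FDPS, the farnesyl diphosphate synthase, was the only one of 19 sterol synthesis genes called (2.94%, 1.24% and 1.32% against 0.368%, 0.0600% and 0.270%). In the MYC network MNT, a MAX partner that opposes MYC, was the only one of 22 (14.9%, 13.2% and 14.2% against 2.82%, 4.85% and 4.32%). IFI35 was the only one of 6 interferon-stimulated genes (9.74%, 21.3% and 10.0% against 0% and 1.00%, with 2 KI-ARv-03 libraries above the read minimum). Of the 6 fits with 1 library left out, the calls of NDUFB9 and CYCS held in 2 (adjusted p up to 0.147 and 0.195), that of FDPS in 1 (0.188) and that of MNT in 0 (0.142), while IFI35 was called in the 4 that could test it. The anti-apoptotic list had 0 calls in level among 8 and in conversion among 7. MCL1, its short-lived member, was at 77.4, 57.8 and 36.2 CPM against 92.6, 45.2 and 74.9, with a conversion of 2.80%, 5.41% and 6.49% against 2.23%, 1.52% and 2.75% (adjusted p = 0.224). The G2 and mitosis genes had a median ratio of conversion of 1.03, against 0.565 over all genes, with 0 of 22 called. Their median conversion with DMSO, 0.2965%, was near the 0.244% of 0 h, so this ratio cannot show whether they were spared. In conversion 5 of the 22 (22.7%) were wholly lower and 1 wholly higher, beside 21.7% and 2.06% of all genes. The lists of p53-activated genes (median log2 difference -0.06), stress and unfolded protein response genes (-0.07), G1 and S genes (0.12), glycolytic enzymes (0.19), other transcriptional kinases (-0.02), heat shock genes (0.03) and recombination genes (0.03) had 0 calls in level and in conversion. With the deposited CPM the last 2 medians changed sign (-0.02 for each), as did that of all genes (-0.01).

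KB742 at 1.2 µM was the other inhibitor at 2 h, and the doses differ, so values are set side by side. Between the compounds 0 of 11417 genes were called in level (0%, limma, 232 at an unadjusted p under 0.05) and 0 of 8392 in conversion (0%, 217). edgeR and DESeq2 called 0 in level too, and the limma fits of both measures without KB742 replicate 2 also called 0. This does not show that they act alike: across genes, the median half-width of the 95% interval for a level difference was 0.865 on the log2 scale. For METTL18 the log2 difference from DMSO was -2.42 with KI-ARv-03 and -2.33 with KB742, and for FGF18 -2.87 and -2.60, called with both (adjusted p = 0.0147 and 0.0315 with KB742). For KLF6 it was -2.10 and -1.56, called with KI-ARv-03 and not with KB742 (adjusted p = 0.294 with KB742). MIR22HG had -1.73 and -2.28, called with KB742 and not with KI-ARv-03 (adjusted p = 0.0107). The difference between the compounds was not called for either gene (log2 -0.55 ± 0.35 for KLF6 and 0.56 ± 0.36 for MIR22HG, adjusted p = 1.00). In conversion KB742 had 71 genes lower than DMSO of 8089 tested (0.878%). Both comparisons share the 3 DMSO libraries. ZBTB7A was at 10.3% ± 2.13 with DMSO, 3.58% ± 0.678 with KI-ARv-03 and 5.55%, 3.44% and 4.28% in the KB742 libraries. POLE3 was at 3.37% ± 0.214, 1.15% ± 0.0778 and, with KB742, 1.46%, 0.974% and 1.05%.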

How the data were processed

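The members and gene lists were chosen with earlier results of these data known. RNA of 22Rv1 cells was made into 3′-end libraries, per the labels' protocols, and transcripts are on hg19, per the submitters' processing notes. The sources used here name no aligner or conversion caller. The deposited signal, headed CPM, sums to 0.921 to 1.13 times its nominal total in the 6 libraries. All values (100%) were within 0.05 of whole multiples of 1 read, and reads were recovered on that basis. The deposited conversion is a fraction whose numerator is not in the table, so it is not called a share of reads.

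Of 50925 RefSeq identifiers, 99.6% were matched to a symbol, and unnamed ones held 0.0861% of reads. A gene is its transcript with the most reads, and 134 genes share all reads with another. Levels were tested with limma 3.58.1 (R 4.3.3) on log2(CPM + 1) after edgeR 4.0.16 TMM scaling and filterByExpr with a minimum count of 10, and 1 fit held all 30 libraries in 10 groups. Because the deposited unit is no raw count, limma replaced a count test, and edgeR and DESeq2 1.42.0 on the recovered reads were alternatives. Conversion was tested with limma methods on the arcsine of the square root, with the variance trend over read depth, at least 20 reads per value and at least 2 values per group. Both fits were checked on simulated data. Fold intervals cover counting error only. Genes were named where called (up to 15), by the most negative 12 and most positive 8 differences at an unadjusted p under 0.01 without overlap, by the 15 lowest p and 10 largest differences in conversion, and from each list the called members and 4 others of high level. Genes described by their conversion at 4 h, C1orf35, and list members beyond these were chosen after their values were seen. The 3 libraries left out together, and the grouping by conversion at 4 h, were also chosen then. Titles gave the groups; a description that names DMSO for every sample was not used. Tables and figures were made in Python 3.11.15 (scipy 1.17.1, pandas 2.3.3, matplotlib 3.10.9). Some genes of the lists are not reported here.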

Additional observations from a re-analysis of the deposited data

How the results depend on the processing

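The 3 genes lower in level were also 3 with deposited CPM, with scaling by library size, with a pseudocount of 0.25 and with edgeR. They became 5 lower and 1 higher (PRIMA1) with no filter, which also called 1 gene between the compounds (PRIMA1), 7 lower with DESeq2, 6 without the 3 libraries apart and 0 with the 2 groups alone. Leaving out 1 library gave 0 to 3. The 67 genes lower in conversion became 40 with at least 10 reads per value, 103 with at least 50, 0 on the log2 scale, 32 with the 2 groups alone and 253 without the 3 libraries apart, which kept all 67. Leaving out 1 library gave 18 to 77. Genes higher in conversion numbered 0 in each of these fits. The difference in mean conversion was -0.214 percentage points as a median over 7061 genes and -0.563 as an unweighted mean, and -0.465 to -0.345 with 1 library left out. The cause of these shifts was not tested.

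Deviations of same-numbered libraries of the compared groups correlated at -0.0224, -0.349 and 0.137 in level and 0.0438, -0.0172 and 0.0376 in conversion. With 3 libraries per group this cannot settle whether the numbers pair them, and the main fits did not pair them. With the replicate number as a block, 3 genes were lower in level and 71 in conversion. Of the 67 genes, 62 stayed called, and MPHOSPH9 (adjusted p = 0.0601), TENT5A and GATA2 (0.0598 each), ZNF275 (0.0507) and GATD1 (0.0568) did not. With the block the difference in mean conversion was -0.397 (exact permutation p = 0.25, the smallest that 3 pairs allow). Depth limits the low genes: FGF18 with KI-ARv-03 rests on 2 reads.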
